A study of Yarrowia lipolytica with 11 samples.

Results

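The genes described here are those that hexanoic acid raised strongly in wild-type Yarrowia lipolytica and that stood at a clearly lower level in a treated mutant. The mutant carries a deletion of PEX10 and a plasmid that overexpresses DGA1. Members were chosen from the deposited normalized counts, the reads of a gene divided by 1 size factor per library, using the mean of each group plus 1. A member had a treated wild-type mean at least 3 times the untreated one, a treated mutant mean at most 0.5 times the treated wild-type mean, and a treated wild-type mean of at least 50. Of 7135 genes in the tables, 674 met the conditions on the wild type, 115 of these also met the condition on the mutant, and 112 remained as members because the rule leaves out 3 named locus tags. All 112 passed the expression filter of the test, which a treated wild-type mean of this size makes easy.

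Yarrowia lipolytica is a yeast that lives well on fats and stores large amounts of lipid. Hexanoic acid is a medium-chain fatty acid, toxic to yeasts at high levels, and fatty acids taken up by this yeast are broken down by beta-oxidation in peroxisomes. PEX10 encodes a peroxin of the machinery that recycles the import receptors of peroxisomes, and cells without it do not build working peroxisomes. DGA1 encodes a diacylglycerol acyltransferase, which makes the storage lipid triacylglycerol.

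RNA sequencing covered 11 libraries in 4 groups: the wild type grown without acid (3 libraries) or with hexanoic acid at 1 g/L (3), and the mutant grown without acid (2) or with the same dose (3). Both mutant groups carry the PEX10 deletion and the DGA1 plasmid together, so the effects of these changes cannot be told apart, and the promoter on the plasmid is not given in the sources used here. Per the labels, independent colonies were grown in YPC medium to exponential phase, so the libraries of a group are separate cultures. Whether the mutant is 1 transformant is not stated. The tables identify nuclear genes by locus tag only, and no tag matched the reference table used here (0 matches). No gene name or role is therefore given to a member, and PEX10 and DGA1 themselves were not analysed here.

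Library totals ran from 9988288 to 17519857 counts. The members took up 0.944%, 0.749% and 0.826% of all counts in the untreated wild-type libraries and 6.18%, 8.78% and 8.80% in the treated ones. In the mutant the share was 3.50% and 3.98% without acid and 3.57%, 2.62% and 2.42% with acid. As group means this was 0.839% ± 0.0982 (SD, n = 3) in the untreated wild type, 7.92% ± 1.51 (n = 3) in the treated wild type, 3.74% ± 0.341 (n = 2) in the untreated mutant and 2.87% ± 0.616 (n = 3) in the treated mutant. The order of the wild-type groups and the low share in the treated mutant follow from the rule. The untreated mutant did not enter the rule, and both of its libraries lay above all untreated wild-type libraries and below all treated ones. Both wild-type groups on either side did enter the rule, which favours low untreated and high treated values. Nothing is therefore read from this position. A share of counts in bulk RNA does not separate fewer cells that express a gene from less RNA per cell.

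**Figure D1:**
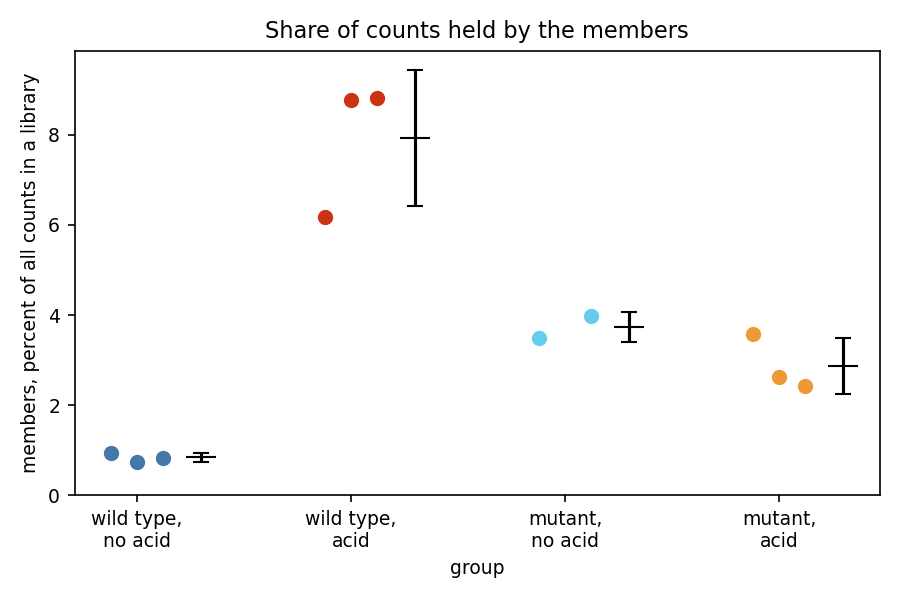
Percent of all counts in a library that fell on the 112 members, by group, with 1 point per library and a bar at the mean ± SD. The treated wild type sits between 6.18% and 8.80%, and both mutant groups between 2.42% and 3.98%.

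The libraries of each treated group were ordered alike over many of these genes. Treated wild-type replicate 1 was the lowest of its group in 82 of the 112 members, against 37.4% of all 6301 genes tested, and its median log2 ratio to the rest of its group was -0.65 over the members and -0.02 over all genes. Treated mutant replicate 1 was the highest of its group in 77 members, against 40.5% of all genes, with a median log2 ratio of 0.51 over the members and 0.01 over all genes. At the other end, treated wild-type replicate 3 was the highest of its group in 73 members (35.7% of all genes) and treated mutant replicate 3 the lowest in 64 (36.8%), with median log2 ratios of 0.42 and -0.44. The 559 other genes that met the wild-type conditions leaned the same way, with treated mutant replicate 1 the highest in 324 and treated wild-type replicate 1 the lowest in 278. The rule applied without treated wild-type replicate 1 picks 158 genes, 110 of them members, and without treated mutant replicate 1 it picks 144, 106 of them members. Leaving out treated wild-type replicate 3 gives 79 genes and leaving out treated mutant replicate 3 gives 90. In all, 64 of the 112 members were picked whichever single library was left out.

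In the wild type the members rose from 3.02-fold to 389.8-fold on the scale of group mean plus 1, with a median of 7.69. The treated mutant stood at 0.0638 to 0.499 of the treated wild type, with a median of 0.369. These ratios chose the members and are given without a test. For each member, the treated mutant was also placed within the wild-type rise. The measure is the treated mutant mean minus the untreated wild-type mean, as a percent of the wild-type rise, called the percent kept. Its median was 25.2%, and it ran from -11.6% to 47.9%. The treated mutant stood below the untreated wild type in 6 members and above it in the rest. The percent kept leaves out the untreated mutant, so it does not show that acid raised the level in the mutant. In 65 members the treated mutant mean was below the untreated mutant mean, a direction that is set beside all genes tested further below.

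Members nearest the fold threshold were YALI0_E32417g (3.02-fold), YALI0_E22264g (3.04) and YALI0_C16995g (3.08), and the nearest genes outside were YALI0_C21582g (2.96), YALI0_E27896g (2.92) and YALI0_F16577g (2.91). On the ratio of treated mutant to treated wild type, YALI0_D08778g (0.4992), YALI0_E00264g (0.4991) and YALI0_E14487g (0.4973) were just inside. YALI0_D24101g (0.5001), YALI0_A04455g (0.5019) and YALI0_F02255g (0.505) were just outside. On level, YALI0_A08195g, YALI0_E33297g and YALI0_E30151g were inside at treated wild-type means of 58.1, 64.0 and 68.9, and YALI0_E05731g, YALI0_D00363g and YALI0_E12507g outside at 33, 28.6 and 16.1. On fold and ratio the values ran on across the threshold in small steps. On level the step was wider, from 58.1 inside to 33 outside.

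Raw counts were also fitted across all 6301 genes tested (edgeR quasi-likelihood test, adjusted p under 0.05). In the contrasts that chose the members, 109 of 112 passed as higher with acid in the wild type (28.5% of all genes tested did) and 88 as lower in the treated mutant than in the treated wild type (5.68% of all genes). These counts describe the choice and support nothing. The latter fell to 39 and 41 without treated mutant replicate 2 or 3 and to 51 and 37 without treated wild-type replicate 2 or 3. Every treated wild-type library was above every untreated one in 110 members (31.4% of all genes) and above every treated mutant library in 97 (17.6%), and the reverse of the latter held in 0 (19.9%).

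**Figure D2:**
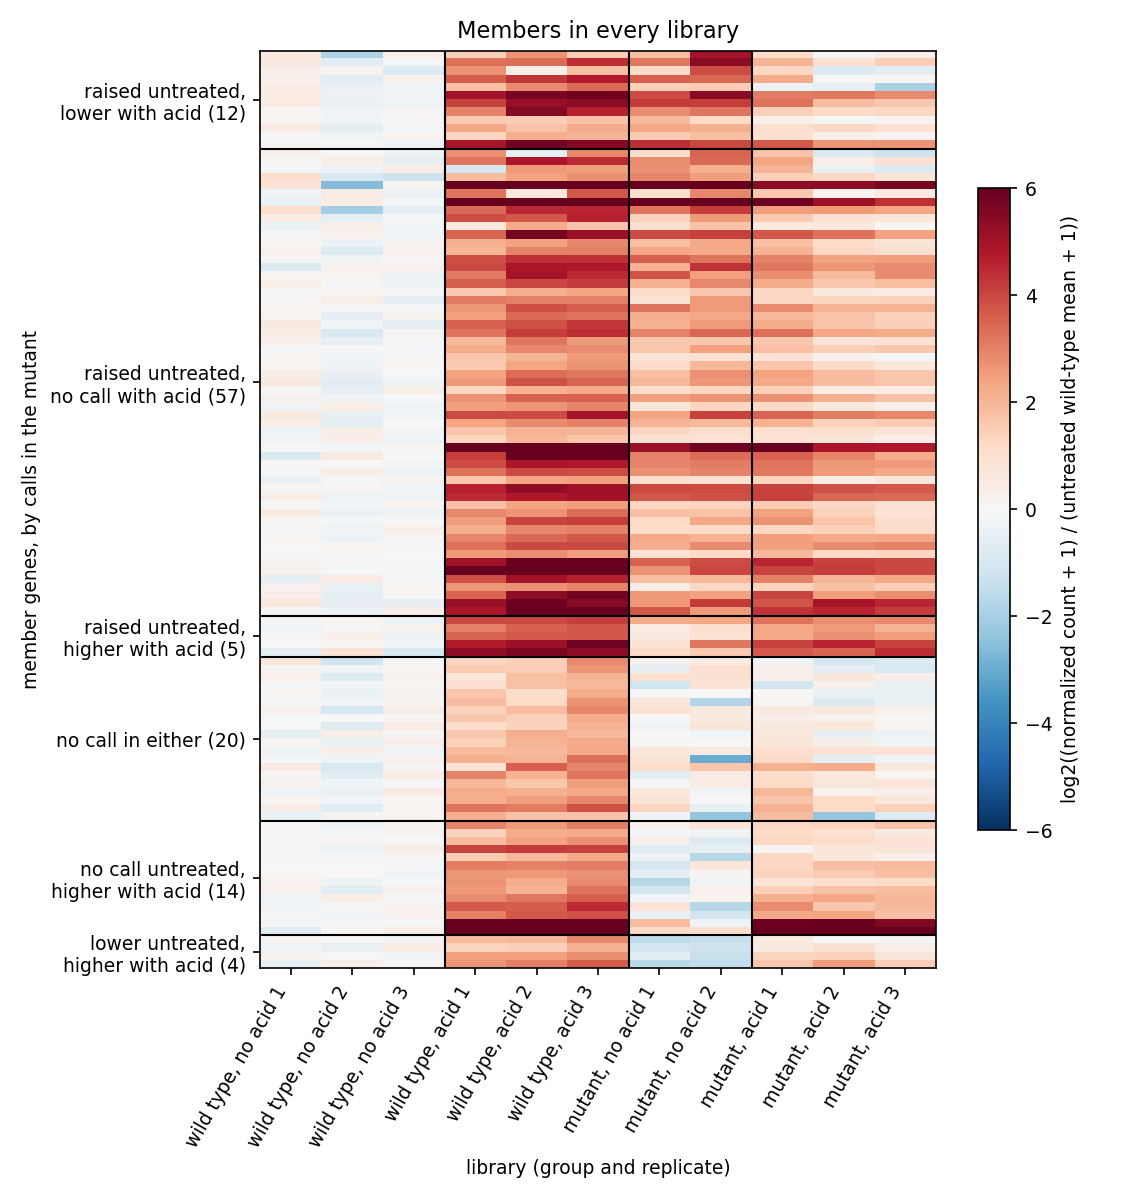
Each row is a member and each column a library; colour gives log2 of normalized count plus 1 over the untreated wild-type mean plus 1, with the scale ending at 6 either way, and rows are split by the calls in the mutant with the number of members in brackets. The treated wild type is the darkest block, while the untreated mutant ranges from raised (top, 74 members) to no call or lower (bottom).

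The mutant data outside the rule's own contrasts divided the members by their level before acid was added. In the untreated mutant 74 of 112 members were already higher than in the untreated wild type (22.8% of all genes tested passed as higher) and 4 were lower (15.3% of all genes), while 34 did not pass. Without untreated mutant replicate 1 the lower count was 8. The median log2 difference was 1.63, against -0.03 over all genes tested. Adding acid to the mutant raised 23 members (7.95% of all genes) and lowered 12 (9.7% of all genes), and 77 did not pass. The lowered members are 10.7% of all members, near the share over all genes. The median log2 change was -0.20, against -0.01 over all genes. In 65 members the mean of the treated mutant was below that of the untreated mutant. The log2 change was above 0 in 47 of the 112 members and in 3094 of all 6301 genes tested. The untreated wild-type and treated mutant libraries of these contrasts also entered the rule, which favours low values in both. The counts are therefore not independent of how the members were chosen, and the contrasts share the untreated mutant libraries.

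Library by library, both untreated mutant libraries were above all untreated wild-type libraries in 80 members (30.2% of all genes tested) and below all of them in 7 (29.4%). Every treated mutant library was above both untreated mutant libraries in 30 members (26.2%), and both untreated mutant libraries were above every treated one in 29 (23.0%). The last pair of shares is near that over all genes. The difference between the strains in the response to acid passed as negative in 94 members (15.5% of all genes), which is 83.9% of the members, with a median of -3.08 on the log2 scale. Among the 559 other genes that met the wild-type conditions it passed as negative in 464 (83.0%), a share close to that of the members. Since its groups include all those of the rule, this is a description only.

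**Figure D3:**
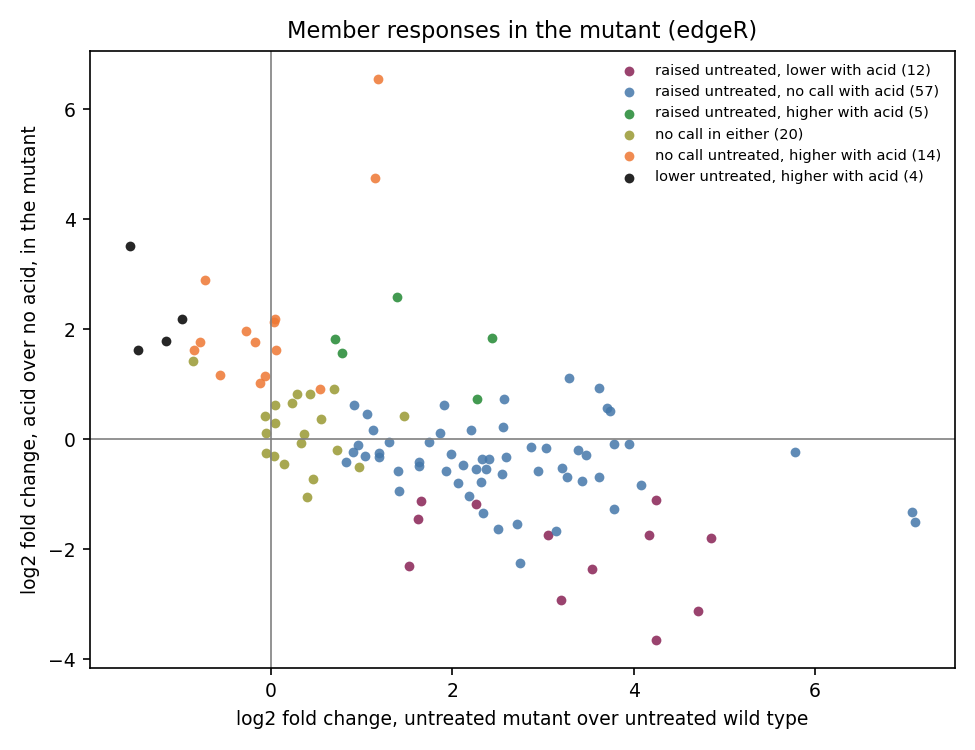
Each point is a member: the horizontal axis gives the log2 fold change of the untreated mutant over the untreated wild type and the vertical axis that of acid in the mutant, both from edgeR, coloured by which contrasts passed. Both axes share the untreated mutant libraries, so an error in them moves a point down and to the right, or up and to the left. The 12 members lowered by acid all lie to the right of 0.

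In 12 members the untreated mutant was higher than the untreated wild type and acid lowered the level in the mutant. The rise with acid in the wild type passed in 11 of them. In YALI0_A08195g that rise was 3.80-fold and did not pass (edgeR, adjusted p = 0.0545). Over the 12, the log2 change with acid in the mutant ran from -3.65 to -1.10. YALI0_E02024g held 5708, 3094 and 3409 normalized counts in the untreated wild type, 67262, 152468 and 170797 in the treated wild type, 74281 and 71691 in the untreated mutant and 38384, 14485 and 12562 in the treated mutant. The untreated mutant libraries lay close together, and acid took the mutant down while it took the wild type up. The log2 differences were 4.17 ± 0.53 for the untreated strains (adjusted p = 0.000135) and -1.74 ± 0.50 for acid in the mutant (adjusted p = 0.0333). For YALI0_D00451g the untreated wild-type libraries stood at 3238, 1745 and 3145 normalized counts and the treated ones at 33565, 53562 and 74421, against 33064 and 29694 in the untreated and 12527, 2830.0 and 3077 in the treated mutant. Treated mutant replicates 2 and 3 fell within the range of the untreated wild type, and replicate 1 stayed well above it. Acid changed it by -2.36 ± 0.58 in the mutant (adjusted p = 0.0173).

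YALI0_E22264g held 1355, 1078 and 1339 normalized counts in the untreated wild type, 3694, 3615 and 4143 in the treated wild type, 4809 and 2851 in the untreated mutant and 1555, 1196 and 1442 in the treated mutant. Both untreated mutant libraries were above all treated mutant ones, the treated mutant overlapped the untreated wild type, and acid changed the level by -1.46 ± 0.23 (adjusted p = 0.00209). YALI0_F22187g held 839.9, 745 and 629.9 normalized counts in the untreated wild type, 22618, 40999 and 33476 in the treated wild type, 15889 and 11913 in the untreated mutant and 9869, 4742 and 4843 in the treated mutant. No library of the treated mutant overlapped another group, and the change with acid was -1.10 ± 0.35 (adjusted p = 0.0494). For YALI0_D24816g the untreated wild-type libraries stood at 162, 88.3 and 93.3 normalized counts and the treated ones at 3628, 6051 and 6474, against 1746 and 4886 in the untreated and 978, 1045 and 830.2 in the treated mutant. The untreated mutant libraries differed from each other, and the change with acid was -1.79 ± 0.39 (adjusted p = 0.0102). For YALI0_F24937g the untreated wild-type libraries stood at 98, 78.6 and 96.4 normalized counts and the treated ones at 726, 4183 and 2341, against 665 and 843 in the untreated and 243, 212 and 219 in the treated mutant. The treated mutant libraries lay within a narrow range, 0.0933 of the treated wild-type mean, and acid changed the mutant level by -1.74 ± 0.49 (adjusted p = 0.03).

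Other members of this pattern rested on 1 untreated mutant library. YALI0_F18084g held 64, 27.4 and 41.1 normalized counts in the untreated wild type, 442, 458 and 983 in the treated wild type, 408 and 1901 in the untreated mutant and 186, 83.4 and 126 in the treated mutant. YALI0_E33297g held 23, 3.53 and 18.97 normalized counts in the untreated wild type, 42.8, 104 and 45.4 in the treated wild type, 55.4 and 522 in the untreated mutant and 34.2, 14.04 and 20.6 in the treated mutant. YALI0_A08195g held 19, 16.8 and 7.90 normalized counts in the untreated wild type, 101, 19.5 and 53.8 in the treated wild type, 32.3 and 235 in the untreated mutant and 36.4, 7.90 and 8.84 in the treated mutant. In all of these, untreated mutant replicate 2 was several times replicate 1. The log2 changes with acid were -3.12 ± 0.59, -3.65 ± 0.82 and -2.93 ± 0.86 (adjusted p = 0.00498, 0.0115 and 0.0367), and without untreated replicate 2 they were -1.65, -1.30 and -0.91 and did not pass. The untreated mutant mean was above the treated wild-type mean in 8 of the 112 members, YALI0_A08195g, YALI0_E33297g, YALI0_F18084g and YALI0_E22264g among them. The same held in 107 of the 559 other genes that met the wild-type conditions, so it is no mark of the members.

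Single libraries also decided other calls of this kind. Of the 12, only YALI0_E22264g passed in all 18 alternative fits. YALI0_A09449g and YALI0_B20416g, also of this pattern, stood in the treated mutant at 0.442 and 0.459 times the untreated mutant. The count of members lowered by acid in the mutant was 6 without untreated mutant replicate 1, 4 without untreated replicate 2, and 5 without treated replicate 2 or 3. YALI0_E02024g did not pass without untreated replicate 1 (-1.70) or 2 (-1.79) or treated replicate 2 (-1.52) or 3 (-1.47), and YALI0_D00451g without untreated replicate 1 (-2.26) or treated replicates 2 (-2.01) or 3 (-2.04). YALI0_D24816g was lost without untreated replicate 2 (-0.89). YALI0_F22187g was lost in 12 of the 18 fits, among them those without either untreated mutant library (-0.86 and -1.31), without treated mutant replicate 2 or 3 (-0.92 and -0.94) and without any single untreated wild-type library (-1.10 each). YALI0_F24937g was lost in 7, those without any single mutant library (-1.89 to -1.58) and both with a replicate block (-1.55 by description number and -1.72 by title number). YALI0_E02024g was also lost with the block by title number (-1.77), and YALI0_F22187g with both blocks (-1.21 and -1.04).

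**Figure D4:**
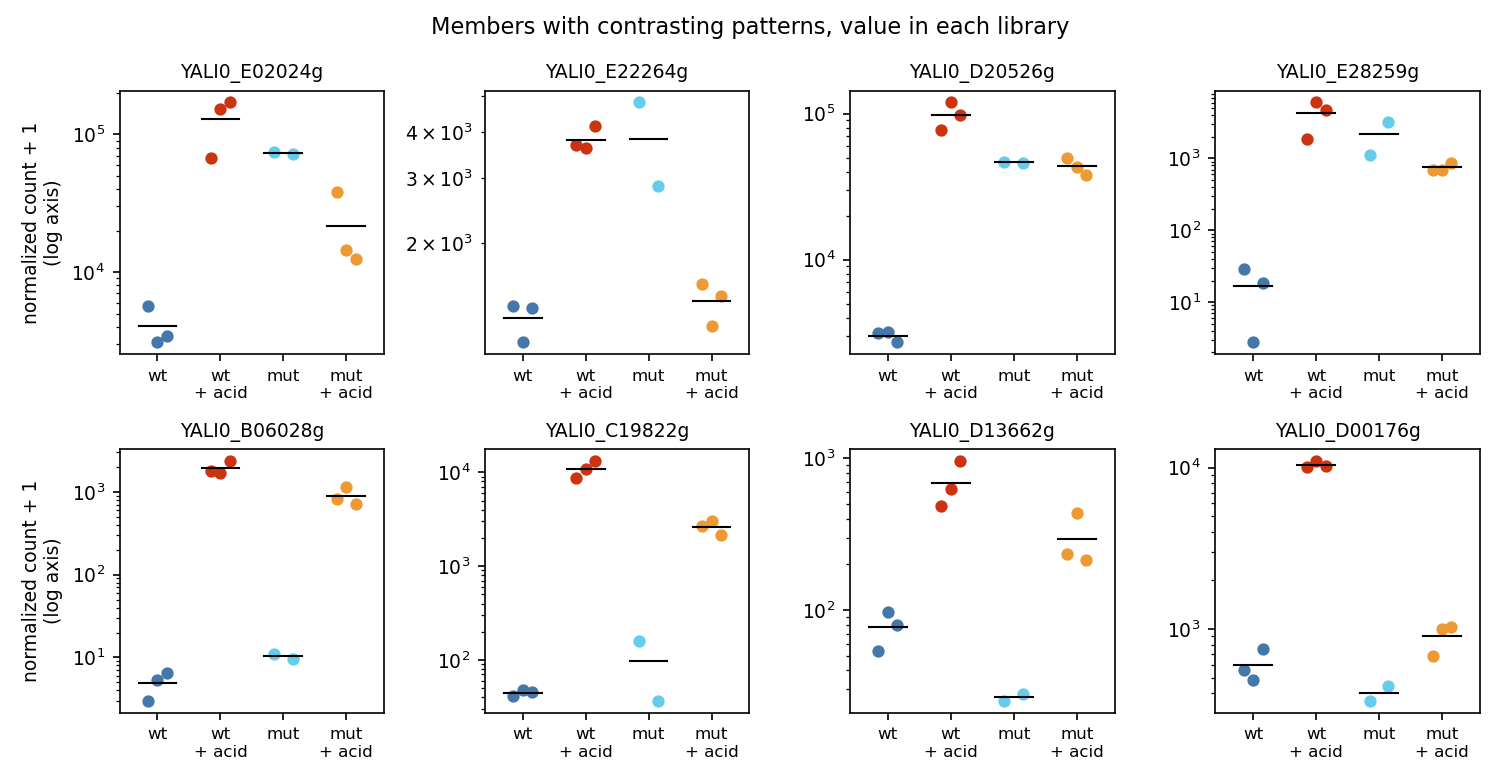
Normalized counts plus 1 on log axes for 8 members, with 1 point per library and a line at the group mean; wt is the wild type and mut the mutant. In the top row the untreated mutant is above the untreated wild type. In the bottom row it did not pass as higher. Its mean plus 1 was 2.09 and 2.19 times the untreated wild type for YALI0_B06028g and YALI0_C19822g. For YALI0_D13662g and YALI0_D00176g it was below the untreated wild type. In that row acid raises the mutant to a level short of the treated wild type.

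The most common pattern, in 57 members, was a raised level in the untreated mutant with no further change that passed when acid was added. Their untreated mutant stood at a median 5.18 times the untreated wild type and covered a median 42.4% of the wild-type rise, and the treated mutant kept 27.3%. How often this pattern occurs outside the members was not counted. Of the 559 other genes that met the wild-type conditions, 88.0% passed as higher in the untreated mutant. For acid in the mutant, 339 of these 559 did not pass. Over all genes tested, 22.8% passed as higher in the untreated mutant, and 5189 of 6301 did not pass for acid. YALI0_D20526g held 3129, 3194 and 2724 normalized counts in the untreated wild type, 77416, 119056 and 97865 in the treated wild type, 46734 and 45944 in the untreated mutant and 49567, 42923 and 38106 in the treated mutant. All mutant libraries formed 1 narrow band with and without acid, below every treated wild-type library, and the untreated mutant mean was 15.4 times the untreated wild type. The strain difference without acid was 3.95 ± 0.24 (adjusted p = 9.70e-07) and the change with acid in the mutant -0.09 ± 0.23 (adjusted p = 0.842). For YALI0_D22352g the untreated wild-type libraries stood at 1703, 1389 and 1438 normalized counts and the treated ones at 49405, 116076 and 92461, against 17426 and 22816 in the untreated and 35396, 25822 and 24260.5 in the treated mutant. The treated mutant was 1.42 times the untreated mutant, a change of 0.51 ± 0.33 that did not pass (adjusted p = 0.329). YALI0_D23947g held 1621, 1265 and 1581 normalized counts in the untreated wild type, 21851, 30879 and 31288 in the treated wild type, 18125 and 13802 in the untreated mutant and 11828, 8001 and 8611 in the treated mutant. All mutant libraries again lay between both wild-type groups, and the change with acid was -0.75 ± 0.26 (adjusted p = 0.0641).

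YALI0_E22286g held 13419, 7930.4 and 11648 normalized counts in the untreated wild type, 42753, 101554 and 65576 in the treated wild type, 34062 and 33744 in the untreated mutant and 33615, 18735 and 20136 in the treated mutant. YALI0_A17020g held 2344, 928 and 1957 normalized counts in the untreated wild type, 16135, 31149 and 37379 in the treated wild type, 13589.7 and 18690.2 in the untreated mutant and 16994, 8751 and 8058 in the treated mutant. YALI0_D10131g held 6449, 2707 and 3549 normalized counts in the untreated wild type, 25444, 59722 and 47594 in the treated wild type, 16583 and 25872 in the untreated mutant and 20376, 15997 and 13285 in the treated mutant. In each of these, treated mutant replicate 1 was the highest treated mutant library and treated wild-type replicate 1 the lowest of its group, and for YALI0_A17020g the former was above the latter. Without acid the log2 differences between the strains were 1.63 ± 0.37, 3.21 ± 0.47 and 2.32 ± 0.42 (adjusted p = 0.00537, 0.000317 and 0.00133). For YALI0_F00682g the untreated wild-type libraries stood at 1063, 1353 and 766 normalized counts and the treated ones at 9772, 30259.5 and 23583, against 7394 and 11296 in the untreated and 5469.8, 1412 and 1919.8 in the treated mutant. Acid changed its level in the mutant by -1.67 ± 0.56, which did not pass (adjusted p = 0.0602).

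Several members of this pattern were almost silent in the untreated wild type. YALI0_E28259g held 28, 1.77 and 17.4 normalized counts in the untreated wild type, 1889.5, 6008 and 4769 in the treated wild type, 1099.8 and 3207 in the untreated mutant and 697, 693 and 870.5 in the treated mutant. The strain difference without acid was 7.11 ± 0.74 on the log2 scale (adjusted p = 3.03e-05), with an untreated wild type that itself varied from 1.77 to 28.0. YALI0_E06589g held 1, 2.65 and 1.58 normalized counts in the untreated wild type, 391, 1444 and 1282 in the treated wild type, 169 and 335 in the untreated mutant and 156, 92.2 and 56 in the treated mutant. The untreated wild-type values stand for 1 to 3 reads per library, so no fold is given for it. For YALI0_F02211g the untreated wild-type libraries stood at 5, 4.42 and 5.53 normalized counts and the treated ones at 834, 696 and 1520.2, against 215 and 345 in the untreated and 369, 179.9 and 164 in the treated mutant. The strain difference without acid was 5.78 ± 0.52 (adjusted p = 1.04e-05), and the treated mutant was 0.850 times the untreated one, a difference that turned direction without untreated mutant replicate 2 (log2 0.13, not passed).

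YALI0_E14256g held 7, 5.30 and 5.53 normalized counts in the untreated wild type, 634, 1984 and 1897 in the treated wild type, 43.3 and 112 in the untreated mutant and 113, 126 and 106 in the treated mutant. Its mutant libraries were all above the untreated wild type and all under the treated one, with 7.30% of the wild-type rise kept. YALI0_F19712g held 2, 7.07 and 4.74 normalized counts in the untreated wild type, 99.9, 1373 and 621 in the treated wild type, 43.3 and 56.6 in the untreated mutant and 63.1, 42.1 and 25.5 in the treated mutant. The treated wild-type libraries of YALI0_F19712g ranged over 13.6-fold, the widest range of that group among the members, so its ratio of 0.0638, the lowest of all members, depends on which library is read. Its strain difference without acid was 3.39 ± 1.01 (adjusted p = 0.0212) and did not pass without untreated mutant replicate 2 (3.20) or any single untreated wild-type library (3.09 to 3.80). YALI0_E33891g held 49, 41.5 and 63.2 normalized counts in the untreated wild type, 1566, 6786 and 4541 in the treated wild type, 697 and 301 in the untreated mutant and 1043, 1254 and 947 in the treated mutant. YALI0_E07205g held 19, 8.83 and 12.6 normalized counts in the untreated wild type, 215, 188 and 364 in the treated wild type, 36.3 and 85.4 in the untreated mutant and 41.7, 25.5 and 22.6 in the treated mutant. Both stood higher in the untreated mutant than in the untreated wild type, by 3.29 ± 0.53 (adjusted p = 0.000632) and 2.18 ± 0.47 (adjusted p = 0.00396) on the log2 scale. The second did not pass without untreated mutant replicate 2 (1.46).

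Acid raised 23 members in the mutant, to a level that the rule holds short of the treated wild type. By the edgeR interaction term, the response was smaller in the mutant in 10 of them, and in the other 13 the term did not pass. That term uses every group of the rule, so this split is a description only. YALI0_D13662g and YALI0_B04796g rose by slightly more in the mutant than in the wild type. Without acid, 14 of them showed no strain difference that passed, 4 were lower in the mutant and 5 were higher. YALI0_B06028g held 2, 4.42 and 5.53 normalized counts in the untreated wild type, 1799.8, 1669 and 2355 in the treated wild type, 10.1 and 8.71 in the untreated mutant and 812, 1154 and 703 in the treated mutant. It rose 389.8-fold in the wild type on the scale of group mean plus 1, from almost nothing, and the treated mutant libraries did not reach the treated wild-type range. Acid raised it in the mutant by 6.56 ± 0.38 (adjusted p = 2.72e-06), and the treated mutant was 0.459 of the treated wild type. For YALI0_C19822g the untreated wild-type libraries stood at 40, 46.8 and 45.05 normalized counts and the treated ones at 8761, 10857 and 13229.8, against 159 and 35.7 in the untreated and 2656, 3060.0 and 2133 in the treated mutant. Acid raised it in the mutant by 4.75 ± 0.54 (adjusted p = 0.000318), with untreated mutant libraries that differed from each other. YALI0_B07403g held 723, 680.2 and 907 normalized counts in the untreated wild type, 6366, 10335 and 11268 in the treated wild type, 578 and 345 in the untreated mutant and 3759, 3933 and 2624 in the treated mutant. The rise in the mutant was 2.90 ± 0.34 (adjusted p = 0.000382), to 0.369 of the treated wild type.

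YALI0_D00176g held 556, 484 and 751 normalized counts in the untreated wild type, 10096, 10991 and 10238 in the treated wild type, 358 and 445 in the untreated mutant and 679.6, 997 and 1023 in the treated mutant. The treated wild-type libraries lay close together, and the mutant rose only 2.24-fold where the wild type rose 17.5-fold. The mutant change was 1.17 ± 0.25 (adjusted p = 0.00877) and was lost without untreated mutant replicate 1 (1.04). The members lower in the untreated mutant were YALI0_D13662g, YALI0_E26499g, YALI0_B04796g and YALI0_D26576g, with log2 differences of -1.55 ± 0.43, -1.46 ± 0.34, -1.15 ± 0.30 and -0.98 ± 0.31 (adjusted p = 0.0155, 0.00634, 0.0115 and 0.0289). YALI0_D13662g held 53, 95.4 and 79.03 normalized counts in the untreated wild type, 481, 624 and 961 in the treated wild type, 24.2 and 27 in the untreated mutant and 234, 435 and 212 in the treated mutant. Acid raised it 11.1-fold in the mutant and 8.98-fold in the wild type, so its lower treated level went with a lower untreated level. For YALI0_E26499g the untreated wild-type libraries stood at 317, 277 and 247 normalized counts and the treated ones at 1041, 1109 and 2091, against 95.8 and 106 in the untreated and 422, 262 and 247 in the treated mutant. Its treated mutant libraries reached the range of the untreated wild type. The strain call of these genes was lost without a single untreated mutant library for YALI0_D13662g (-1.498 without replicate 1, -1.62 without replicate 2), YALI0_B04796g (-1.05 without replicate 2) and YALI0_D26576g (-0.65 without replicate 2).

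YALI0_C05885g held 23, 64.5 and 17.4 normalized counts in the untreated wild type, 1415, 1778 and 1496 in the treated wild type, 77.6 and 105 in the untreated mutant and 461, 398 and 781 in the treated mutant. This was the member with the largest rise in the mutant among those also raised before acid, 2.58 ± 0.48 (adjusted p = 0.00463), and without untreated mutant replicate 1 neither the change with acid (2.40) nor the strain difference (1.58) passed. The others of the 5 that were raised in both contrasts were YALI0_A19932g, YALI0_B01342g, YALI0_D12408g and YALI0_D19382g, whose treated mutant stood at 0.458, 0.485, 0.469 and 0.491 of the treated wild type. Of the 18 alternative fits, the acid call was lost in 9 for YALI0_B01342g and in 11 for YALI0_D19382g. The strain call was lost in 6 for YALI0_A19932g, 4 for YALI0_D12408g and 1 for YALI0_B01342g. Their other calls passed in all 18. The 5 kept a median 42.2% of the wild-type rise. The 14 with no strain difference that passed kept 27.9%, and the 4 that were lower kept 25.1%. This percent is built from the group means that the rule used. The calls that group the members share libraries with it, so these medians are description only.

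The remaining 20 members passed in neither contrast of the mutant. The untreated mutant was a median 1.23 times the untreated wild type, the treated mutant 1.15 times the untreated mutant, and 10.7% of the wild-type rise was kept. A p that misses the threshold does not show that these genes stayed level. YALI0_F25553g held 225, 59.2 and 126 normalized counts in the untreated wild type, 323, 368 and 1009 in the treated wild type, 164 and 195 in the untreated mutant and 116, 68.5 and 76.6 in the treated mutant. The treated mutant lay at 0.155 of the treated wild type and below the untreated wild-type mean. YALI0_C16995g held 3814, 3329 and 4094 normalized counts in the untreated wild type, 7326, 12723 and 14605 in the treated wild type, 1661 and 6649 in the untreated mutant and 1744, 4505 and 2789 in the treated mutant. Both mutant groups covered a wide range (acid in the mutant -0.45 ± 0.51, adjusted p = 0.607, and 0.85 without untreated replicate 2). The treated mutant mean was below the untreated wild-type mean in 6 members, YALI0_F25553g, YALI0_C16995g, YALI0_A19866g, YALI0_B09537g, YALI0_B19800g and YALI0_B21780g, of which the last 3 were chosen after their values were seen.

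Position was not part of the rule. The members were spread over all 6 chromosome letters of the locus tags, from 11 of 1047 tags on C (1.05%) to 23 of 1175 on D (1.96%). In the order of locus tags, 10 members formed 4 runs of direct neighbours, the longest of 4 genes from YALI0_A19866g to YALI0_A19932g. Tags of this kind are numbered along the chromosome, and coordinates were not used here. YALI0_A19866g held 35, 19.4 and 22.1 normalized counts in the untreated wild type, 88.7, 191 and 283 in the treated wild type, 69.6 and 75.8 in the untreated mutant and 20.3, 17.6 and 5.89 in the treated mutant. YALI0_A19888g held 887, 846 and 743 normalized counts in the untreated wild type, 12649.8, 23866 and 23248 in the treated wild type, 6389 and 7039 in the untreated mutant and 7924, 5262 and 4826 in the treated mutant. Both rose in the wild type without overlap, and all 4 genes of the run did so, by 7.10-fold, 24.1-fold, 24.1-fold and 10.97-fold along the run. YALI0_A19910g held 66, 141 and 90.1 normalized counts in the untreated wild type, 1471, 3342 and 2420.0 in the treated wild type, 345 and 399.9 in the untreated mutant and 819, 414 and 491 in the treated mutant. YALI0_A19932g held 43, 44.2 and 56.1 normalized counts in the untreated wild type, 392, 569.5 and 639 in the treated wild type, 67.5 and 96.7 in the untreated mutant and 246, 289.7 and 196 in the treated mutant. In the mutant the run did not move as 1 unit. YALI0_A19866g was lowered by acid (-2.31 ± 0.53, adjusted p = 0.0123) and YALI0_A19932g was raised (1.57 ± 0.27, adjusted p = 0.00328), while YALI0_A19888g (-0.16 ± 0.30) and YALI0_A19910g (0.63 ± 0.39) did not pass. The first of these calls was lost without untreated mutant replicate 1 (-2.35), and the strain difference of the same gene (1.52 ± 0.50, adjusted p = 0.0326) without either untreated mutant library (1.56 and 1.48). The next genes on either side changed 2.17-fold (YALI0_A19844g) and 0.433-fold (YALI0_A19954g) in the wild type. The strand setting of the counting is not given, so reads of overlapping or opposite neighbours may not be separated, and the same holds for near-identical gene copies.

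**Figure D5:**
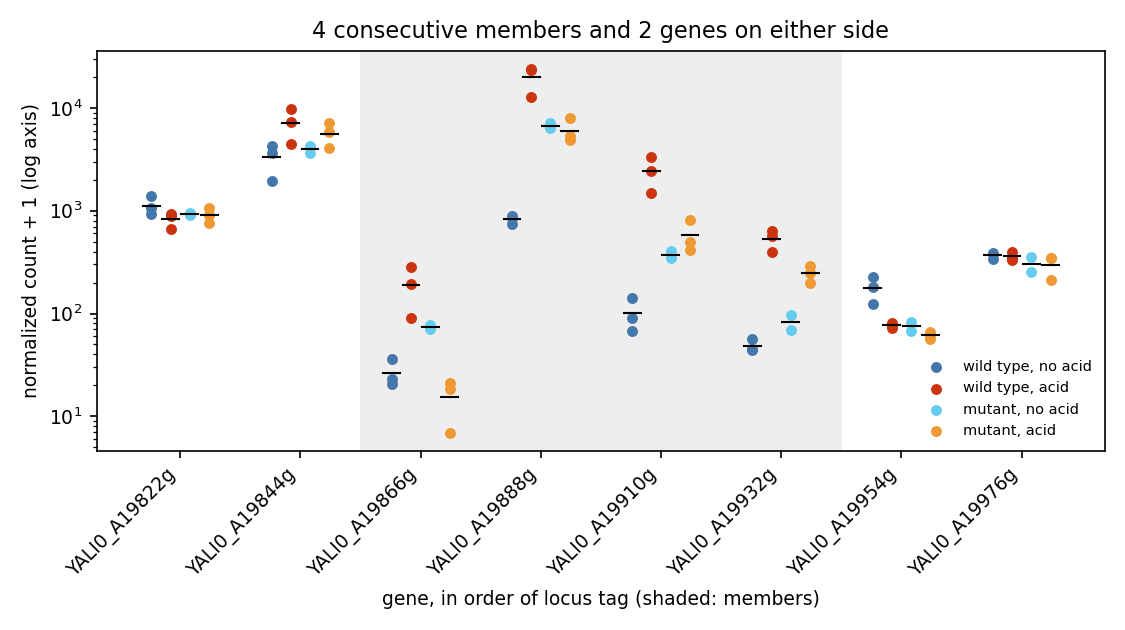
Normalized counts plus 1 (log axis) in order of locus tag for the 4 consecutive members, shaded, and the 2 genes on either side; points are libraries and lines group means. All 4 members are highest in the treated wild type, and only YALI0_A19866g drops below the untreated wild type in the treated mutant.

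The other runs were pairs. YALI0_C03443g held 2487, 1828 and 1614 normalized counts in the untreated wild type, 24271, 31313 and 35767 in the treated wild type, 8581 and 14588 in the untreated mutant and 9281, 6095 and 6901 in the treated mutant. YALI0_C03465g held 1564, 956 and 722 normalized counts in the untreated wild type, 12387, 15472 and 20169 in the treated wild type, 4787 and 6415 in the untreated mutant and 5034, 3581 and 2945 in the treated mutant. This pair kept nearly the same proportions, with ratios of treated mutant to treated wild type of 0.244 and 0.241 and strain differences without acid of 2.55 ± 0.30 and 2.37 ± 0.35 (adjusted p = 7.74e-05 and 0.000353). YALI0_B09625g held 3103, 3242 and 3845 normalized counts in the untreated wild type, 10016, 13294 and 16488 in the treated wild type, 2672 and 1075 in the untreated mutant and 7989, 5250.1 and 4173 in the treated mutant. YALI0_B09647g held 959.9, 868 and 1278 normalized counts in the untreated wild type, 4648, 7719 and 8289.6 in the treated wild type, 2227 and 2284 in the untreated mutant and 2474, 2769 and 2305 in the treated mutant. Here the untreated mutant lay below the untreated wild type for YALI0_B09625g (-0.84 ± 0.39, adjusted p = 0.109) and above it for YALI0_B09647g (1.13 ± 0.25, adjusted p = 0.00451). The remaining pair was YALI0_E22264g and YALI0_E22286g, both described above. Among the 174 tested genes that lie next to a member and are not members, 29.3% passed as higher with acid in the wild type, near the 28.5% of all genes tested.

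Set beside the 559 genes that met the wild-type conditions but stood above 0.5 times the treated wild type in the treated mutant, the members had a lower share of raised genes in the untreated mutant. Higher calls there made up 66.1% of members (74 of 112) and 88.0% of the other induced genes (492 of 559), with median log2 differences of 1.63 and 1.80. Both sets were chosen for low untreated wild-type values, and this difference in share was not tested. The untreated mutant covered a median 25.3% of the wild-type rise in the members and 59.7% in the other induced genes. The cut between both sets favours high treated wild-type means in the members, which lowers this percent, so nothing is read from the gap. The untreated mutant was a median 3.09 times the untreated wild type in the members and 3.43 times in the others. With acid, 20.5% of members and 38.5% of the other genes rose in the mutant, and 10.7% and 0.894% fell. Over all genes tested 7.95% rose and 9.7% fell, so the share of members that fell is near that over all genes. The median wild-type rise was 7.69-fold in the members and 4.84-fold in the others. The low treated mutant values that chose the members fix part of the difference in the acid response.

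Replicates differed widely for part of the members. The highest library was over 3 times the lowest in 19 members in the treated wild type (17.0%, against 3.27% of all genes tested), in 17 in the untreated mutant (15.2% against 3.87%), in 12 in the treated mutant (10.7% against 2.97%) and in 6 in the untreated wild type (5.36% against 3.46%). YALI0_A01089g, chosen after its values were seen, had the widest range in the treated mutant. YALI0_A01089g held 2946, 4587 and 4693 normalized counts in the untreated wild type, 17691, 13150.0 and 13169.7 in the treated wild type, 3638 and 782 in the untreated mutant and 14867, 828 and 2355 in the treated mutant. Its treated mutant replicate 1 lay inside the range of the treated wild type and replicate 2 far below the untreated wild type.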

How the data were processed

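RNA was extracted with TRI Reagent and made into directional libraries (NEBNext Ultra II) for Illumina sequencing, per the labels' protocols. Reads were checked with FastQC 0.11.7 and the tools named for later steps are STAR 2.7.9a (an aligner), SAMtools 1.9, HTSeq 0.11.0 (a read counter) and DESeq2 1.32.0 (count statistics), per the submitters' processing notes. Genome build, annotation and strand setting were not found in the sources. The deposited counts are whole reads per gene and library. The deposited signal values, called normalized counts here, equal the counts over a library-wide factor, which was checked on the values.

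Members and lists were chosen with earlier results of these data known. Levels are the deposited normalized counts, not scaled by gene length. They were compared between genes only for the level cut of the rule and to pick the members with the highest level. Those choices can therefore depend on gene length. Raw counts were analysed with edgeR 4.0.16 in R 4.3.3: TMM scaling, filterByExpr (6301 of 7135 genes kept), 1 mean per group over all 11 libraries, and glmQLFTest with robust dispersions. Adjusted p is by Benjamini-Hochberg over all genes tested, with 0.05 as the threshold. The ± after a log2 fold change is a standard error, obtained as its size over the root of the F statistic. The procedure was tested on simulated data. Library correlations of log2 CPM within groups were 0.958 to 0.992, and no pair of libraries agreed within sampling noise (chi-square per degree of freedom at least 36.5), so each counted as 1 replicate.

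Named members were the 10 with the highest level in the treated wild type, the 10 with the largest rise, the 10 with the lowest ratio of treated mutant to treated wild type, up to 5 per direction with the largest passing change in each mutant contrast, those in runs of neighbours and those at the thresholds. YALI0_A09449g, YALI0_B20416g, YALI0_B01342g, YALI0_D12408g and YALI0_D19382g are outside these lists and were named to complete their patterns, with their calls known. Members said to be chosen after their values were seen are outside them too. Alternatives were other scalings, no filter, DESeq2 1.42.0, only the groups compared, replicate blocks, other thresholds of the rule and leaving out each library. Gene lists by annotation words, peroxisomal targeting signals and promoter motifs were planned and are not analysed here, since no annotation or sequence was matched to the tags.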

Additional observations from a re-analysis of the deposited data

Results flagged for a closer look

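The response to hexanoic acid differed between the strains in 94 of the 112 members by the edgeR interaction term (83.9%; 15.5% of all genes tested). The share was close to that in the other genes induced in the wild type, 464 of 559 (83.0%). This term uses every group of the rule, so it is a description. Acid raised the level in the wild type and lowered it in the mutant, with both changes passing, in 11 members, and in 34 of all 6301 genes tested. The rule chose members for a rise in the wild type and for low values in the treated mutant, so nothing is read from the comparison of these counts. Of the 12 members lowered by acid in the mutant, 1 passed in all 18 alternatives.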

How the results depend on the processing

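No count changed direction. The sign of a log2 value changed 13 times, in 7 named members, and in none of these did the value pass before or after. For acid in the mutant, leaving out 1 library gave -1.12 to 0.845 for YALI0_C16995g and -0.699 to 0.126 for YALI0_F02211g (positive without untreated mutant replicate 2), -0.0487 to 0.558 for YALI0_E00264g (negative without untreated replicate 1), -0.281 to 0.591 for YALI0_E32417g (negative without untreated replicate 1 or treated replicate 2), and -0.221 to 0.0867 for YALI0_D08778g and -0.556 to 0.0624 for YALI0_F19712g (positive without treated replicate 3). The last was 0.212 with the replicate block by description number. For the strains without acid the ranges were -1.15 to 0.817 for YALI0_C16995g and -0.136 to 0.736 for YALI0_E32417g (negative without untreated mutant replicate 2), and -0.311 to 1.88 for YALI0_C19822g (negative without untreated replicate 1). YALI0_C16995g was -0.200 with the replicate block by description number and -0.0865 by title number. The number of members was 65 with a ratio of treated mutant to treated wild type of at most 0.4, 76 with total counts only, 109 with TMM-scaled values and 127 with group medians (98 shared), and 79 to 158 leaving out 1 library. With total counts as the scale, the median over all genes shifted by -0.10 (log2) for acid in the wild type and by 0.13 for the strain effect with acid. For the acid effect in mutant cells, the members raised numbered 15 when only the groups compared were fitted and 16 to 23 leaving out 1 library. Members lowered numbered 6 with a replicate block by title number and 4 to 16 leaving out 1 library. Over all genes, the acid effect in mutant cells gave 1112 calls, 654 with only the groups compared, 739 with the block by title number and 447 to 1420 leaving out 1 library. The strain effect without acid gave 2402 calls over all genes and 1376 to 2403 leaving out 1 library, with 52 to 74 members higher and 3 to 8 lower. The strain effect with acid gave 673 calls, 1057 with DESeq2, 409 and 391 with a replicate block by description or title number, and 134 to 925 leaving out 1 library, with 37 to 95 members lower. The cause of these moves was not tested; leaving out a library or fitting only the groups compared leaves fewer libraries. Libraries with the same replicate number did not deviate together (correlations -0.54 to 0.44), so the numbers were not taken as pairs. Of the members called, 51 of 74 higher in the untreated mutant, 1 of 4 lower, 10 of 23 raised by acid and 1 of 12 lowered passed in all 18 alternatives. Members with few reads in the untreated wild type are limited by depth.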
